A study of Homo sapiens with 9 samples.

Results

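The message of DGCR8 carries a pair of RNA hairpins in its second exon, annotated as the miRNA hairpins hsa-mir-1306 and hsa-mir-3618. They were taken by name from a count table of small RNA libraries and are 2 of its 1485 hairpins. The choice was made with their changes in these libraries known from earlier results. DGCR8 is the RNA-binding partner of the nuclease DROSHA, and together they form Microprocessor, which cuts miRNA hairpins out of primary transcripts in the nucleus. Microprocessor also cuts the hairpins in the DGCR8 message itself, a cut that removes the message and so limits the amount of DGCR8, and fragments of the cut hairpins enter the miRNA pool. ERH, a small nuclear protein, is known to bind the N-terminal part of DGCR8.

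Small RNA was sequenced in 9 libraries from human cell lines transfected with siRNAs. HEK293E, a line of embryonic kidney origin, received siRNAs on days 0 and 3 and was harvested on day 5. It received the control siRNAs siGFP and siControl or the ERH siRNA siERH-3 in replicates 1 and 2, and a further ERH siRNA, siERH-5, in replicate 2 only. K562, a leukaemia line with erythroid traits, was electroporated with siGFP or siERH-5 and harvested 4 days later, with 1 library each. The HEK293E libraries thus form an arm of 4 controls and an arm of 3 with siERH. Fragments of 18 to 30 nt were selected before adapter ligation. The labels place HEK293E replicates 1 and 2 in experimental groups 1 and 2, and both K562 libraries in group 3. The labels do not say whether replicates came from separate cultures, so the spread between them may be technical.

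The libraries held 2609929 to 3320017 hairpin counts. The erythroid hairpins hsa-mir-144, hsa-mir-451a and both copies of hsa-mir-486 were higher in each K562 library than in every HEK293E library. The lowest K562 and highest HEK293E values of hsa-mir-144 were 7903 and 27.1 RPM (reads per 1000000). ERH and DGCR8 mRNA are not small RNAs and were not measured, so the knockdown could not be checked here, and a change in hairpin cutting and a change in the amount of the DGCR8 message cannot be told apart.

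The mature miRNAs of both hairpins are shown because they are the annotated products of these hairpins. Which reads the table sums for a hairpin is not given in the sources used here. The sequences are from RefSeq (GRCh38.p14, all on the plus strand of chromosome 22), 5′ to 3′, with the seed (bases 2 to 8, which pair with targets) in capitals.
hsa-miR-3618: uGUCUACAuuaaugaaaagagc
hsa-miR-1306-5p: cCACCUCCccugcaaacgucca
hsa-miR-1306-3p: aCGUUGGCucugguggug

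The 3 seeds differ from each other, and 0 of the other mature miRNAs among the 2370 of the RefSeq table carry any of them. No other hairpin of that table held any of the 3 mature sequences in full. The arms differ in composition, with a GC content of 31.8% in hsa-miR-3618, 63.6% in hsa-miR-1306-5p and 61.1% in hsa-miR-1306-3p. At 18 nt, hsa-miR-1306-3p lies at the lower edge of the selected fragment sizes, while the other 2 have 22 nt. Each row of the table is a hairpin, so the arms of hsa-mir-1306 were not separated.

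On GRCh38 with GENCODE release 29, exon 2 of DGCR8 spans chr22:20085687-20086683. hsa-mir-3618 (MIR3618, chr22:20085746-20085833, plus strand, 88 bases) lies in its 5′ untranslated part and ends 130 bases before the start codon. hsa-mir-1306 (MIR1306, chr22:20086058-20086142, plus strand, 85 bases) lies wholly in the coding part, 224 bases further along, from codon 32 to codon 60. hsa-miR-1306-5p covers codons 37 to 44 and starts on base 1 of codon 37, and hsa-miR-1306-3p runs from base 2 of codon 50 to codon 56. The hairpins differ in GC content, with 58.8% in hsa-mir-1306 and 39.8% in hsa-mir-3618.

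**Figure D1:**
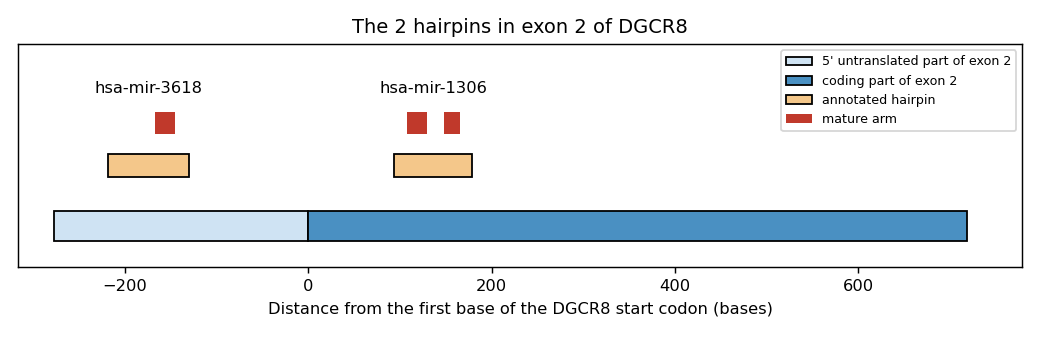
Exon 2 of DGCR8 drawn to scale, with distance from the first base of the start codon in bases on the x axis; the lower bar is the exon, boxes above it the annotated hairpins and red boxes their mature arms. hsa-mir-3618 lies wholly before the start codon, and hsa-mir-1306 wholly after it.

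hsa-mir-1306, the hairpin of the coding part, was well represented. In HEK293E it had 2576 and 1891 counts with siGFP, and 2067 and 2050 with siControl, in replicates 1 and 2. It had 806 and 717 counts with siERH-3 in the same order and 774 with siERH-5. The libraries were put on a common scale with TMM, which sets the typical hairpin equal between libraries of a line, and values are given as CPM (counts per 1000000 of the scaled library).

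On that scale the controls had 736 and 797 CPM with siGFP and 726 and 779 CPM with siControl. The siERH libraries had 239 and 219 CPM with siERH-3 and 220 CPM with siERH-5. All 3 siERH libraries therefore lay below all 4 controls, with a wide gap between the arms and little spread within either. Of the 773 hairpins tested, 148 (19.1%) were placed in this way, and in 25.5% all siERH libraries lay above all controls.

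The mean level of hsa-mir-1306 was 759 ± 34.1 CPM (SD, n = 4) in controls and 226 ± 11.3 CPM (SD, n = 3) in siERH libraries, or 3.36-fold lower by the fitted model. Its log2 fold change in edgeR's quasi-likelihood fit over 773 hairpins was -1.75 ± 0.16 (SE). This was the 16th lowest of the 773 fold changes. Both hairpins were chosen by their siERH changes in HEK293E and K562, known from earlier results, so these values describe them and no p-value is attached.

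hsa-mir-3618, the hairpin of the untranslated part, was rare. In HEK293E it had 19 and 13 counts with siGFP and 16 and 14 with siControl, in replicates 1 and 2. With siERH-3 it had 6 counts in replicate 1 and 19 in replicate 2, and with siERH-5 it had 7. The siERH-3 library of replicate 2 thus stood with the controls, and the other 2 siERH libraries stood below all of them.

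The same values of hsa-mir-3618 came to 5.43 and 5.48 CPM with siGFP and to 5.62 and 5.32 CPM with siControl. They came to 1.78 and 5.79 CPM with siERH-3 and to 1.99 CPM with siERH-5. The arms overlapped, because 1 siERH library exceeded all 4 controls. The means were 5.46 ± 0.124 CPM (SD, n = 4) and 3.19 ± 2.26 CPM (SD, n = 3).

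The spread of the 4 controls was smaller than the counting error of any one of them. For siGFP replicate 2, for example, the 13 counts have an exact 95% Poisson interval of 6.92 to 22.2 counts. Such intervals cover counting error only, since reads were not stated to be collapsed by molecule. The fitted log2 fold change of hsa-mir-3618 was -0.78 ± 0.41 (SE), the 93rd lowest of 773.

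**Figure D2:**
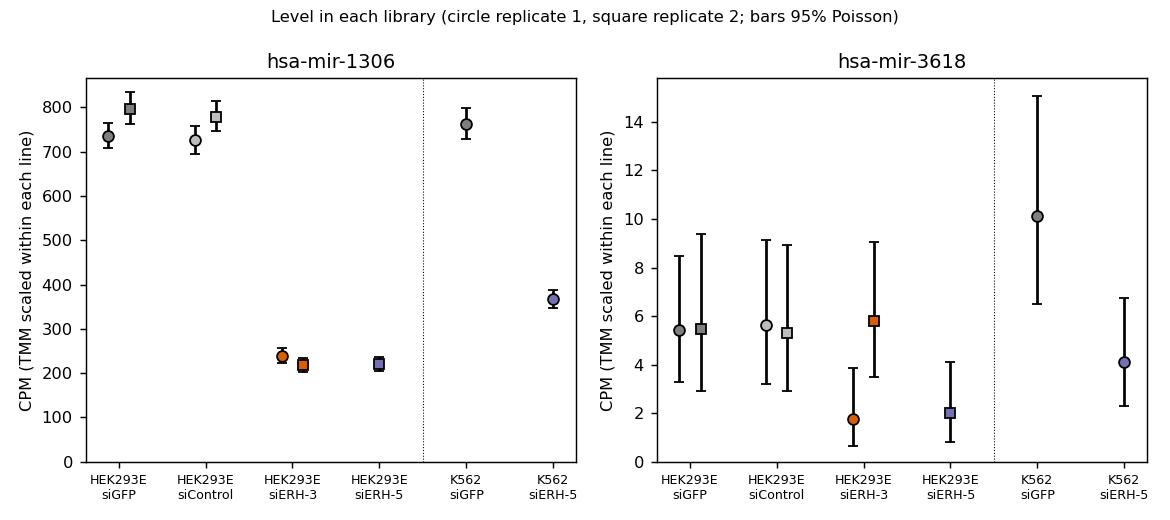
Level of each hairpin in CPM (y axis, from 0, TMM scaled within each line, so values of different lines are not on 1 scale) by siRNA and line (x axis); each point is a library and bars are 95% Poisson intervals of its count. hsa-mir-1306 lay between 219 and 239 CPM in the HEK293E siERH libraries and between 726 and 797 CPM in the controls, while hsa-mir-3618 overlapped between the arms.

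At an adjusted p under 0.05 (edgeR, Benjamini-Hochberg over all hairpins tested), hsa-mir-1306 was called lower and hsa-mir-3618 was not called. That is 1 of the 2 hairpins, where 40.0% of all 773 were called in either direction and 16.2% were called lower. With siERH-3 alone against the 4 controls, hsa-mir-1306 changed by -1.72 ± 0.19 and was again called lower (of 759 hairpins 30.6% were called in either direction and 11.5% lower), and hsa-mir-3618 changed by -0.52 ± 0.43 (SE). Blocking by replicate raised the siERH-3 calls from 87 lower and 145 higher to 142 and 200, and left the calls of the DGCR8 hairpins as they were. The siERH-3 comparison uses controls and siERH-3 libraries that are all in the pooled comparison as well. It is thus a part of the pooled comparison and not a repeat of it.

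The fit of hsa-mir-3618 rests on the siERH-3 library of replicate 2. Without it, its siERH change was -1.51 and passed the threshold; without siERH-3 replicate 1 it was -0.47, without siERH-5 -0.52 and with replicate 2 alone -0.44, none of which passed. It also passed, at -1.23, when a trend on hairpin GC content was removed from each library. hsa-mir-1306 was called lower in all 17 alternative fits, with a log2 fold change between -1.84 and -1.56. All these fits reuse libraries by which both hairpins were chosen, so they show only how far the values depend on the settings.

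Taken library by library against the controls of the same replicate, hsa-mir-1306 had log2 ratios of -1.61 and -1.84 with siERH-3 in replicates 1 and 2 and of -1.84 with siERH-5. The siERH siRNAs of replicate 2 thus gave nearly equal values for it, 219 and 220 CPM. For 773 hairpins, 8.41%, 6.6% and 7.5% were at least 2-fold lower in these 3 ratios. hsa-mir-3618 had log2 ratios of -1.23, 0.09 and -1.10 in the same order, with 95% counting intervals of -3.18 to -0.37, -0.83 to 1.00 and -2.89 to -0.21. At these levels the added pseudocount of 1 matters: with 10 in its place the siERH-5 ratio of hsa-mir-3618 was -0.36. Single libraries have no replicate check, and these ratios have no p-value.

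The control siRNAs gave a comparison that played no part in choosing the hairpins. Between siControl and siGFP, the log2 fold change of hsa-mir-1306 was -0.03 ± 0.25 (SE), with an edgeR adjusted p of 0.976. For hsa-mir-3618 it was -0.0044 ± 0.38 (SE), with an edgeR adjusted p of 0.997. Across alternatives the adjusted p stayed between 0.872 and 1.00 for both. In this comparison 0.0% of 730 hairpins were called by edgeR, 24 had an unadjusted p under 0.05, and DESeq2 called 2 lower and 2 higher. Once replicate 1 and replicate 2 were treated as blocks, 61 were called lower and 72 higher, and neither DGCR8 hairpin was among them.

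The ratio of both counts within a library does not depend on scaling. In the 4 control libraries of HEK293E, hsa-mir-1306 had 136, 129, 145 and 146 counts for each count of hsa-mir-3618. It had 134 with siERH-3 in replicate 1, 37.7 with siERH-3 in replicate 2 and 111 with siERH-5. One library of the 7 therefore differed, and the other 6 lay close together.

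As a share of the pair, hsa-mir-3618 made up 0.678% to 0.768% in the controls. It made up 0.739% (95% exact binomial interval 0.272% to 1.60%) with siERH-3 in replicate 1, 2.58% (1.56% to 4.00%) in replicate 2 and 0.896% (0.361% to 1.84%) with siERH-5. The mean log2 ratio of hsa-mir-1306 to hsa-mir-3618 was 7.12 ± 0.09 (SD, n = 4) in controls and 6.37 ± 0.99 (SD, n = 3) in siERH libraries. The difference of -0.75 was smaller than the spread of the siERH arm and was -0.19 without the siERH-3 library of replicate 2. In 2 of 3 siERH libraries, then, the hairpins were lower by similar factors, within the wide counting error of the rarer one.

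**Figure D3:**
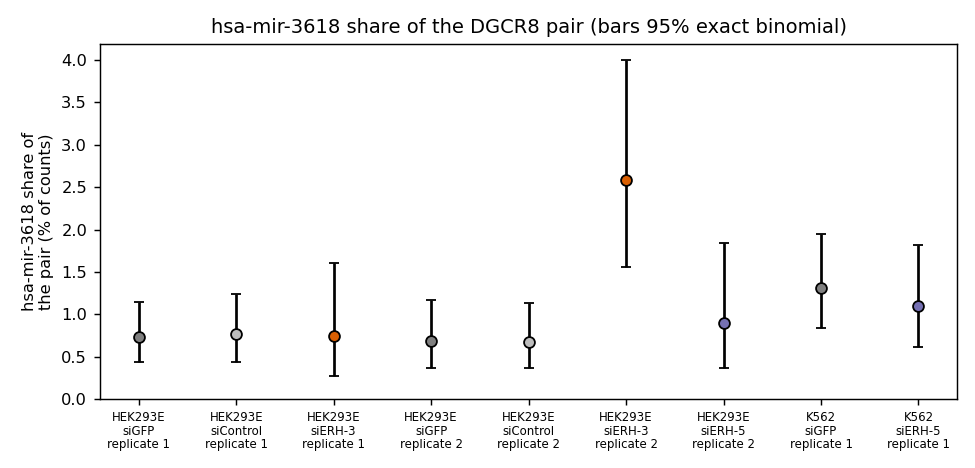
Share of hsa-mir-3618 in the summed counts of both DGCR8 hairpins (y axis, percent, from 0) in each of the 9 libraries (x axis); bars are 95% exact binomial intervals. The siERH-3 library of replicate 2 stands at 2.58%, and the interval of every other library includes values under 1%.

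In K562 both hairpins were lower in the siERH-5 library than in the siGFP library. hsa-mir-1306 went from 1808 counts in the siGFP library to 1345 in the siERH-5 library, or 763 and 367 CPM within this line, a log2 ratio of -1.05 (counting interval -1.16 to -0.95). hsa-mir-3618 had 24 and 15 counts, or 10.1 and 4.10 CPM, a log2 ratio of -1.13 (counting interval -2.34 to -0.32). Both were more than 2-fold lower, as were 6.81% of the 646 hairpins measured, whose median log2 ratio was 0.11.

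These ratios ranked 40th and 36th lowest of 646. On library totals in place of TMM, the K562 ratio was -0.77 for hsa-mir-1306 and -0.88 for hsa-mir-3618, both under 2-fold. With a pseudocount of 10 in place of 1, that of hsa-mir-3618 was -0.51. The K562 pair compares 2 libraries and not conditions. Set beside it, siERH-5 in HEK293E gave hsa-mir-1306 a log2 ratio of -1.84, and the difference between the lines was not tested. The lines also differed in transfection and harvest days, so line and schedule cannot be told apart. The share of hsa-mir-3618 in the pair was 1.31% (0.841% to 1.94%) with siGFP in K562 and 1.10% (0.619% to 1.81%) with siERH-5. Their intervals overlap.

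**Figure D4:**
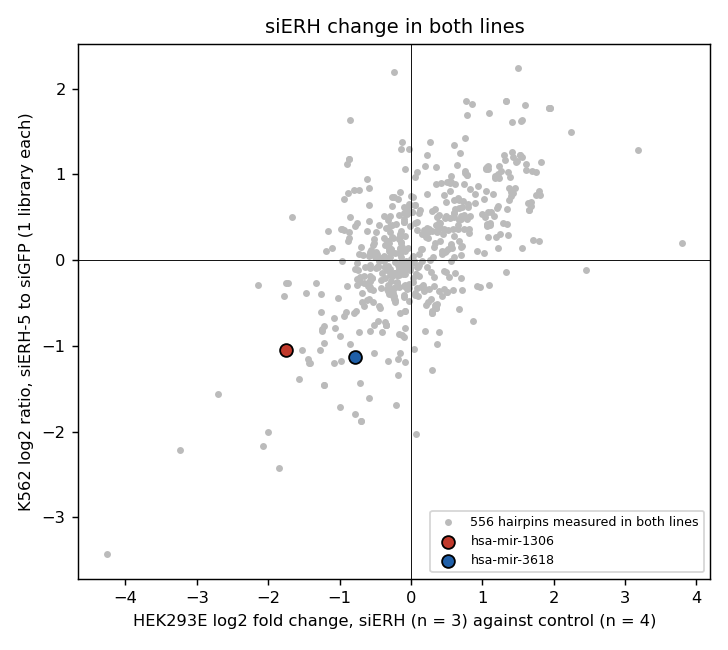
log2 fold change of siERH against control in HEK293E (x axis) and log2 ratio of siERH-5 to siGFP in K562 (y axis) for 556 hairpins measured in both lines (grey), with the DGCR8 hairpins coloured. hsa-mir-1306 lies at -1.75 and -1.05 and hsa-mir-3618 at -0.78 and -1.13, both in the quadrant lower in both lines. Many hairpins lie below 0: 44.0% of the 646 measured in K562, and the HEK293E median of 773 hairpins was -0.01. At least 2-fold lower in both lines were 16 of the 556, including hsa-mir-1306 but not hsa-mir-3618.

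Between the lines, the order of levels depended on scaling for hsa-mir-1306. In the authors' deposited RPM it had 692 RPM in K562 with siGFP, within the 668 to 793 RPM of the 4 HEK293E controls. K562 with siERH-5 followed at 405 RPM, and the HEK293E siERH libraries were lowest at 231 to 261 RPM. With TMM over all 9 libraries K562 siGFP was highest at 1302 CPM, K562 siERH-5 had 613 CPM and the HEK293E controls 594 to 684 CPM, which do not differ beyond their spread. The 3 HEK293E siERH libraries, at 193 to 204 CPM, were the lowest on either scale.

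The log2 ratio of K562 siGFP to HEK293E siGFP for hsa-mir-1306 was 0.99 with TMM but -0.13 on library totals. For hsa-mir-3618 it was 1.69 with TMM (counting interval 1.06 to 2.70) and 0.67 on library totals. The value on library totals has no counting interval. It rests on 24 counts in K562 siGFP against 19 and 13 in the HEK293E siGFP libraries. Whether it exceeds counting error was not tested. With TMM, 46.0% of 741 hairpins were higher in K562 and 23.6% at least 2-fold higher. Within its line, hsa-mir-1306 was the 174th most abundant of 1385 hairpins in HEK293E controls and the 138th of 1061 in K562 siGFP, and hsa-mir-3618 the 650th and the 442nd.

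Other hairpins in exons of coding genes show where hsa-mir-1306 stands. By GENCODE, 184 further hairpins overlap such an exon on their own strand by at least 1 base, and 78 were abundant enough to test. Exons of every annotated transcript of a coding gene were counted, also of transcripts that are not coding. Some of these hairpins may therefore lie in an intron of the coding message. Among the 78 is hsa-mir-484, which is made without Microprocessor. In HEK293E siERH libraries 9 were called lower, 10 higher and 59 were not called, where 125 (16.2%) of all 773 were lower and 184 higher. The list had a median log2 fold change of -0.15 against -0.01 for all hairpins tested. On library totals 2 were lower and 12 higher, with medians of 0.02 and 0.19.

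The largest falls among them were those of hsa-mir-1257, which overlaps an exon of TAF4, a subunit of the general transcription factor TFIID, and of hsa-mir-7705 in PABPC1, the cytoplasmic poly(A)-binding protein. They changed by -2.08 ± 0.41 and -1.74 ± 0.36 (SE; edgeR adjusted p = 0.003 and 0.00426), from 17.7 and 7.01 CPM in controls. The largest rises were those of hsa-mir-198, in an exon of the secreted glycoprotein gene FSTL1, and hsa-mir-4687, in one of the calcium sensor gene STIM1. hsa-mir-198 had 1 count in the 4 controls together and 23 to 67 in each siERH library. hsa-mir-4687 changed by 1.42 ± 0.36 (SE; edgeR adjusted p = 0.0108).

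All 4 were far less abundant than hsa-mir-1306. A bound on abundance was therefore added after the values were seen. Of the exonic hairpins with a control mean of at least 100 CPM there were 23, and their log2 fold changes ran from -0.66 to 0.79, with 2 called lower and 2 higher. The -1.75 of hsa-mir-1306 lies below that range, which leaves out the rarer hsa-mir-1257 and hsa-mir-7705 with falls of like size. Because hsa-mir-1306 was chosen by its siERH change, its place outside the range is a description only. The lowest of the 23 was hsa-mir-1307, in an exon of the mitochondrial ATP synthase gene ATP5MD, at 15631 CPM in controls. In K562 the order was different: hsa-mir-1908 of the 23, in an exon of the fatty acid desaturase gene FADS1, had a log2 ratio of -1.61, lower than the -1.05 of hsa-mir-1306. Of the 60 exonic hairpins measured there, 2 were at least 2-fold lower and 6 higher, against 44 and 65 of all 646.

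Lying wholly inside coding sequence, as hsa-mir-1306 does, is less common. A further 16 hairpins of the table do, also a set added later, and 9 were tested. Of these 2 were called lower, hsa-mir-7114 in NSMF at -0.93 ± 0.32 and hsa-mir-6742 in TRIM11 at -0.84 ± 0.25 (SE; edgeR adjusted p = 0.0388 and 0.0199). The share lower over all hairpins was 16.2%, close to that of these 9. hsa-mir-7114 and hsa-mir-6742 kept the call in 5 and 9 of 17 alternatives, and on library totals 0 of the 9 were called. The abundant ones did not pass: hsa-mir-671, in the chondroitin synthesis gene CHPF2, changed by -0.37 ± 0.18 from 2572 CPM, and hsa-mir-935, in the calcium channel subunit gene CACNG8, by 0.27 ± 0.18 from 702 CPM (SE).

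The neighbours of DGCR8 in the 22q11 region of chromosome 22 were compared next. Of 7 listed hairpins 6 were tested, and 1 was called lower and 0 higher (library totals: 0 and 0). That is 1 of 6, near the 16.2% of all hairpins that were called lower. The one called was hsa-mir-6816 (chr22:20114686-20114751), on the opposite strand, at -0.86 ± 0.22 (SE; edgeR adjusted p = 0.0109), a call kept in 12 of 17 alternatives. It went from 21.8 ± 3.23 to 12.0 ± 0.927 CPM (SD, n = 4 and n = 3).

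The other 5 did not pass. hsa-mir-185 (chr22:20033139-20033220) had 2240 ± 258 and 1995 ± 113 CPM in the 2 arms, a log2 fold change of -0.17 ± 0.15 (SE). hsa-mir-301b and hsa-mir-130b, which lie side by side further along the chromosome, changed by -0.28 ± 0.27 and -0.16 ± 0.25 (SE). hsa-mir-1286 changed by -0.25 ± 0.28 and hsa-mir-4761 by -0.06 ± 0.34 (SE). On library totals hsa-mir-185, hsa-mir-130b and hsa-mir-4761 were at 0.01, 0.06 and 0.12. In K562 the log2 ratios of the 6 ran from -0.38 to 0.54, and 0 of 6 reached 2-fold.

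Some hairpins are made without Microprocessor, such as mirtrons, which are released by splicing, and the capped hairpins hsa-mir-320a and hsa-mir-484. Of 14 such hairpins listed, 9 were tested in HEK293E, with 1 called lower and 0 higher and a median log2 fold change of -0.22. Over all 773 hairpins 16.2% were lower, and the median was -0.01. On library totals 0 were lower and 1 higher. The one lower was the mirtron hsa-mir-1237 at -0.80 ± 0.27 (SE; edgeR adjusted p = 0.0366), a call kept in 6 of 17 alternatives. In K562, 0 of the 7 measured reached 2-fold.

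The hairpins most like each DGCR8 hairpin were sought by Pearson's r of log2(CPM + 1) over the 9 libraries, among 789 others. The points share libraries and scaling, so r is a description. For hsa-mir-1306 they were hsa-mir-425 (r = 0.980, chromosome 3), hsa-mir-532 (r = 0.971, chromosome X) and hsa-mir-365a (r = 0.951, chromosome 16). These 3 changed by -1.53, -1.02 and -1.25 in HEK293E and had log2 ratios of -1.05, -0.44 and -0.82 in K562. None lies on chromosome 22. hsa-mir-365b had nearly the same values as hsa-mir-365a, -1.25 in HEK293E and -0.81 in K562, so reads of that pair may not be separated. The other DGCR8 hairpin, hsa-mir-3618, came 40th with r = 0.792.

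Over the 7 HEK293E libraries alone the closest were hsa-mir-181d (r = 0.995), hsa-mir-449c (r = 0.993) and hsa-mir-124-3 (r = 0.992), and hsa-mir-3618 came 165th with r = 0.651. hsa-mir-124-3 has near-identical copies whose reads cannot be separated. For hsa-mir-3618 the closest over 9 libraries were hsa-mir-6855 (r = 0.923), hsa-mir-19a (r = 0.915) and hsa-mir-151b (r = 0.907). Over HEK293E alone they were hsa-mir-6780b (r = 0.936), hsa-mir-1227 (r = 0.853) and hsa-mir-203a (r = 0.826). The top 3 of the 9 libraries and of HEK293E shared no hairpin for either member, and at 6 to 24 counts a library the order for hsa-mir-3618 carries counting noise.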

How the data were processed

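The authors deposited raw counts per miRNA hairpin and RPM values for the same 9 libraries. Per the submitters' processing notes cutadapt, Bowtie2, bedtools and build hg38 were used, with roles and the miRNA annotation not given in the sources used here. The deposited RPM is the count plus 1 over the library total plus 1485, times 1000000 (largest relative difference 1.1e-09). The 2336 blank cells were read as 0. Libraries were grouped by title.

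A hairpin averaging 10 or more counts in the samples of a comparison was tested with edgeR 4.0.16 (TMM, quasi-likelihood, Benjamini-Hochberg, threshold 0.05) in R 4.3.3, without a block. Standard errors are the log2 fold change over the square root of F. The fit was tested on simulated data. Alternatives used DESeq2 1.42.0 and limma 3.58.1 on log2(RPM + 1). Single-library ratios used CPM plus 1. In HEK293E the replicate number matches the experimental group in the labels. Deviations of same-numbered HEK293E libraries correlated with r of 0.463 to 0.672 between siRNAs, so a blocked fit was also run. GENCODE matched 1480 of 1485 hairpins. At totals of 2609929 to 3320017 counts, 3 counts equal 0.904 to 1.15 RPM. Spike-in RNAs were not analysed here, so all changes are relative to other hairpins.

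The members, lists and tests were chosen with earlier results of these data known. Besides the members, the text names the 3 hairpins closest to each by r, of the exonic and Microprocessor-independent lists up to 2 falls and 2 rises past the threshold, and every tested 22q11 hairpin. Hairpins wholly in coding sequence and those above 100 CPM were named after their values were seen.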

Additional observations from a re-analysis of the deposited data

How the results depend on the processing

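Under 17 alternatives for siERH against control, 11 for siERH-3 against control and 9 for siControl against siGFP, hsa-mir-1306 kept its side of the threshold in all. hsa-mir-3618 passed it for siERH against control (reported as -0.78) with the GC trend removed (-1.23), with the replicate block and GC trend removed (-1.28) and without siERH-3 replicate 2. Leaving out 1 library at a time gave it -1.51 to -0.47, and for siERH-3 -1.57 to 0.11. The replicate block alone gave -1.75 for hsa-mir-1306 and -0.86 for hsa-mir-3618, and changed no call of theirs. The block moved the log2 ratio of hsa-mir-1306 to hsa-mir-3618 to -0.70, and leaving out 1 library gave -1.11 to -0.19.

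Over all hairpins, siERH against control gave 125 lower and 184 higher. Scaling by library totals left 67 lower and limma 66, with 24.0% and 23.7% of calls lower in place of 40.5% (50.5% with the GC trend removed), and the median log2 fold change shifted by 0.20 and 0.21. The lower count ran from 76 to 130 with 1 library left out (77 and 76 without siERH-3 replicates 1 and 2), and 136 to 189 were higher. siERH-3 against control gave 87 lower and 145 higher. Library totals left 48 lower, limma 47, and the replicate block gave 142. With 1 library left out 19 to 102 were lower and 42 to 152 higher. Without siERH-3 replicate 1 it gave 19 lower and 49 higher, without siERH-3 replicate 2 24 and 42, and without siControl replicate 1 51 lower. The cause was not tested. Between siControl and siGFP (0 and 0), DESeq2 and no filter each gave 2 and 2, the replicate block 61 and 72, and leaving out 1 library 0 lower and 0 to 1 higher (1 without siGFP replicate 2 or either siControl library). Fits that leave 1 library in an arm, added after the data were seen, assume that it varies like the others.

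On library totals the ratio of hsa-mir-1306 was -0.77 in K562, -1.54 for HEK293E siERH-5 and -0.13 for K562 siGFP against HEK293E siGFP, where hsa-mir-3618 had 0.67, and 0.89 with a pseudocount of 10. Counts of hsa-mir-3618 limit every statement on it.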
